A study of Rattus norvegicus with 2 samples.

Results

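The genes described here build, shape and maintain mitochondria: the translocases that carry proteins into the organelle, the proteins that fuse and divide it, its proteases, and the factors that copy and transcribe its DNA. They were chosen by symbol from the genes of a rat liver array: the Tomm and Timm families, mitofusins, Opa1, Dnm1l, Fis1, Immt, Samm50, the proteases Lonp1, Clpp, Clpx, Afg3l and Yme1l1, prohibitins, Pink1, and the Tfam, Tfb and Polg factors. The choice used only probe sets annotated to exactly 1 gene, and each gene was read on its brightest probe set, the one with the highest mean signal. It found 43 of the 14217 genes on the array, on 62 probe sets.

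Liver RNA came from male Wistar rats, 2 months old, an outbred strain with no genetic change stated. Both groups were fasted for 18 h. The fasted group received no fat, and the olive oil group received 5 ml of olive oil by mouth, 16 ml per kg, and was killed 4 h later. Each group was 1 array, with the number of rats per array not given in the sources used here, and the hour at which each group was killed is not stated either. Every difference below compares 2 arrays, is written as olive oil minus fasted on the log2 scale, and has no replicate, standard deviation or test.

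Nearly all mitochondrial proteins are made in the cytosol and pass the outer membrane through the TOM complex. From there the TIM23 complex threads those with a cleavable signal into the matrix, while small TIM proteins chaperone membrane carriers across the intermembrane space to the TIM22 complex. Inside, proteases of the AAA family remove damaged proteins, and fusion and fission set the shape of the network. The liver is rich in mitochondria, which oxidise fatty acids and make ketone bodies during fasting.

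Of the 7 genes at least 1.5-fold apart between the arrays, Timm9, Polg2 and Afg3l2, all higher after olive oil, are not printed here. The upstream sequences of the other 4 are shown: Tomm20, Timm10 and Timm17a had a higher signal after olive oil, and Polg a lower one. The 250 bases before each start site are printed from RefSeq, build GRCr8, read 5′ to 3′ on the gene's strand, with matches to 3 motifs in capitals.

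Tomm20, chr19:71832421-71832670, minus strand: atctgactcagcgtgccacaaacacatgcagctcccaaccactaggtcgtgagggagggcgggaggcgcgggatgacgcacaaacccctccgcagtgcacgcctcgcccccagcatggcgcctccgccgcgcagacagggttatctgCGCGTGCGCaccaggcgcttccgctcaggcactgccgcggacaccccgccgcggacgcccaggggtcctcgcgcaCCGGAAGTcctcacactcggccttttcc

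Timm10, chr3:90314889-90315138, plus strand: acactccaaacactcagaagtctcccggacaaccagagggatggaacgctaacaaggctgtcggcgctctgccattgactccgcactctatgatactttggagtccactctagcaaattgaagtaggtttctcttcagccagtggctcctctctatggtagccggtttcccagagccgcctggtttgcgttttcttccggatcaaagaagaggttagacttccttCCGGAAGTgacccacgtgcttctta

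Polg, chr1:142808839-142809088, minus strand: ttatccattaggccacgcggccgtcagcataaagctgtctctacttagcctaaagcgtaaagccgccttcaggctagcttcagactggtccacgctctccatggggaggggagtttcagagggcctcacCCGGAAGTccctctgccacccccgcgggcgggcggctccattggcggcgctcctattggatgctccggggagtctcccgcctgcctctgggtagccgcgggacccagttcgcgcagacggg

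Timm17a, chr13:49294405-49294654, minus strand: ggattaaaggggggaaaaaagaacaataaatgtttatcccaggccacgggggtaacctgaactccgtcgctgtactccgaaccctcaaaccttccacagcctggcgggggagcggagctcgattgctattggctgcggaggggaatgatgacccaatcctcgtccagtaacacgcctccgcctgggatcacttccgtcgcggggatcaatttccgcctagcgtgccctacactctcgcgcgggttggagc

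The motifs were GCGCANGCG, the core of the site of NRF1, a regulator of nuclear genes for mitochondria, CCGGAAGT, the site of ETS factors such as GABP, and AAGGTCA, the core site of estrogen-related receptors. They were searched on both strands from 250 bases before to 50 bases after each start, and none of the matches printed above overlapped. Tomm20 held an NRF1 match on the strand opposite to the one printed, where it reads as CGCGTGCGC, and an ETS match on the printed strand. Timm10 and Polg each held an ETS match, and Timm17a held none of the 3. Timm9, Polg2 and Afg3l2, which are not printed, held none of them in the searched window either. A promoter was listed for 34 of the 40 genes bright enough to be measured, in 35 windows, since Fis1 had more than 1 start. The ETS motif was in 28.6% of these windows, against 8.78% of the 8590 windows of all measured genes and 3.81% of all 33469 windows. The corresponding shares were 20.0%, 13.7% and 5.80% for NRF1, and 2.86%, 3.08% and 4.61% for the estrogen-related receptor motif. Genes with an ETS match ranged from -0.59 for Polg to 0.75 for Tomm20 in log2 difference, and 6 of 10 were above 0. Genes with an NRF1 match ranged from -0.36 for Afg3l1 to 0.75 for Tomm20, and 4 of 7 were above 0. A match describes letters in a window and is not a site.

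The arrays were alike in overall brightness, with median signals of 42.5 and 44.7. The 7 hepatocyte marker genes found, of 8 listed, were bright on both arrays, with Alb, the albumin gene, at 17154 and 17984, and their summed signal was 80521 fasted and 82111 after olive oil. Markers of other cells, summed whether measured or not, were 2515 and 2871 for macrophages, 4130 and 4597 for endothelial cells, 2446 and 2530 for stellate cells, 239.1 and 172.7 for bile duct cells, and 74.8 and 93.0 for lymphocytes, none of whose 4 genes was measured. Those of red cells were 9333 and 9032. Single markers went both ways within these sums. The highest and lowest log2 differences were 0.61 for Lyve1 and -0.54 for Kdr among endothelial markers. Among stellate cell markers they were 0.67 for Acta2 and -0.59 for Lrat. The 3′ to 5′ signal ratio of beta-actin, a measure of RNA integrity, was 2.63 fasted and 3.20 after olive oil, and that of Gapdh 1.28 and 1.34. The part of cell makeup and RNA integrity in the differences below was not tested, and in whole liver fewer cells of a type and less RNA per cell cannot be told apart. Probe sets of the same gene scattered in log2 difference with a standard deviation of 0.35 over 2290 genes, which covers probe error only.

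As a group, the genes were shifted slightly upward after olive oil. Genes were called measured if their mean log2 signal was at or above that of the median probe set, which corresponds to a signal of 41.4, and 40 of the 43 were. Of these, 6 were at least 1.5-fold higher after olive oil (15.0%), beside 9.44% of all 9209 measured genes. Only Polg was at least 1.5-fold lower (2.5%), beside 10.1% of all measured genes. After centring both arrays on their medians, the shares over all measured genes were 7.60% and 12.7%, and the group had 5 higher and 1 lower. A log2 difference above 0 was found in 26 of the 40 genes (65.0%) and in 48.3% of all measured genes. The median was 0.17, with the middle 50% of genes between -0.10 and 0.33, beside a median of -0.01 over all measured genes. After centring, these medians were 0.093 and -0.09. Most of the group is bright, and 36 of the genes lay above the 75th percentile of signal, 181.0. Of those 36, the same counts of 6 higher and 1 lower stood beside 7.01% and 7.43% of the 5505 genes as bright. None of the 40 reached 2-fold in either direction.

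**Figure D1:**
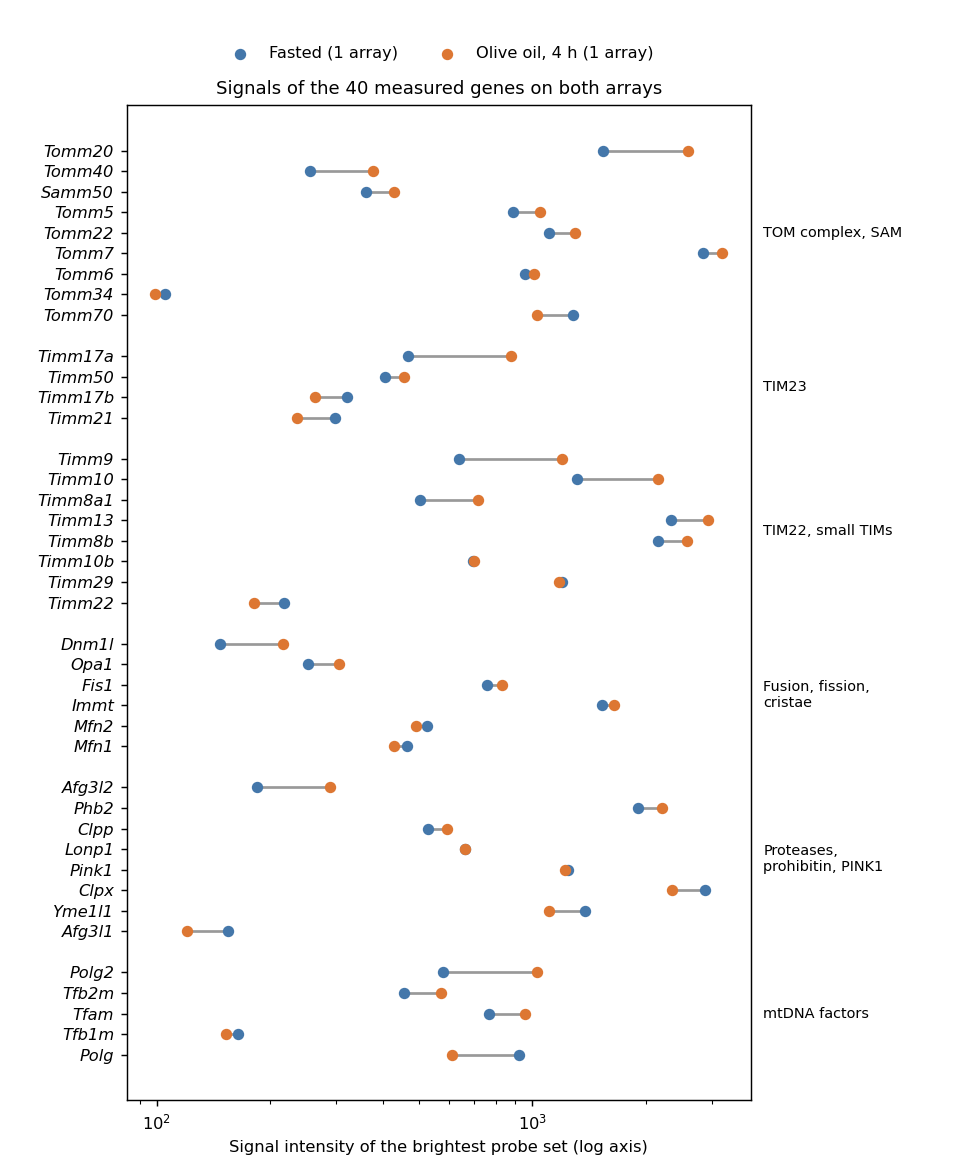
Signal intensity (log axis) of the 40 measured genes on the fasted array (blue) and the olive oil array (orange), grouped by role, with a line joining the 2 values of a gene. The longest lines to the right belong to Timm17a (465.5 to 878.9), Timm9 (637.2 to 1199) and Polg2 (579.6 to 1026), and the longest to the left to Polg (918.2 to 611.7).

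The 6 genes past 1.5-fold upward were spread over the roles: the receptor Tomm20, the channel subunit Timm17a, the chaperones Timm9 and Timm10, the protease Afg3l2 and the polymerase subunit Polg2. Import genes had a median log2 difference of 0.23 over 21 measured genes. Of these, 4 were at least 1.5-fold higher (19.0%), 0 lower and 15 above 0 (71.4%). The 19 other genes had a median of 0.10, with 2 higher (10.5%), 1 lower (5.26%) and 11 above 0 (57.9%). Over all measured genes the shares were 9.44% higher, 10.1% lower and 48.3% above 0. The same shares stand beside the counts by role below. The smallest call upward was Afg3l2 at 1.56-fold, and Polg lay at the limit at 1.5-fold lower. Just short of the limit came Dnm1l at 1.47-fold, Tomm40 at 1.47-fold and Timm8a1 at 1.43-fold higher.

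At the outer membrane, the receptor gene Tomm20 had the highest difference of the measured genes, followed by Tomm40. Tomm20 encodes a receptor that recognises the signal peptides of incoming proteins. Its signal was 1543 on the fasted and 2593 on the olive oil array, 1.68-fold higher and above 94.0% of all measured genes in difference. A second probe set gave 1449 and 2552, so that the log2 differences were 0.75 and 0.82. Tomm40, which forms the channel itself, had signals of 256.5 and 375.9, a log2 difference of 0.55. Tomm22, the central receptor that holds the complex together, was at 1109 and 1297, or 0.23. The small subunits Tomm5, Tomm6 and Tomm7, which assemble and stabilise the channel, differed by 0.24, 0.08 and 0.17. All 5 of these lay within 1.5-fold, with the same sign as Tomm20 under all 3 other scalings tried.

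Tomm70, the receptor for carrier proteins that arrive with cytosolic chaperones, gave no single answer. Its brighter probe set went from 1284 to 1028, a log2 difference of -0.32, and the other from 684.3 to 969.3, or 0.50. Samm50, which inserts barrel proteins into the outer membrane, was at 359.5 and 427.9, or 0.25. Tomm34, a cytosolic cochaperone of import, was at 105.2 and 99.0, or -0.09. Tomm40l, a relative of the channel gene, was not measured, with signals of 15.1 and 19.3 on 1 probe set and 3.5 and 23.8 on the other. Over the 9 measured genes of this role the median was 0.23, with 1 at least 1.5-fold higher and 0 lower.

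In the TIM23 complex, the alternative channel subunits Timm17a and Timm17b went in opposite directions. Timm17a had the highest log2 difference of the 40 genes, 0.92, with a signal of 465.5 fasted and 878.9 after olive oil, 1.89-fold higher. Timm17b went from 321.3 to 263.8, 1.22-fold lower, or -0.28. The distance between the subunits was 1.20 on the log2 scale. Each was read on 1 probe set, so no second probe set could be set beside it.

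The other genes of the complex read here lay within 1.5-fold. Timm23 itself was left out, because its probe set also lists other genes. That probe set had signals of 4335 and 4250, or -0.03. Timm50, the receptor that takes proteins over from TOM, was at 405.7 and 454.6, or 0.16. Timm21, which couples the complex to the outer membrane and the respiratory chain, was at 297.4 and 236.1, or -0.33. Timm44, the anchor of the import motor, fell just under the limit for measured genes, with signals of 42.6 and 39.9. The median over the 4 measured genes was -0.06, with 2 genes above 0 and 2 below.

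Of the 6 measured small TIM genes, 5 had a higher signal after olive oil and Timm10b was level on its brightest probe set, whereas the TIM22 channel gene had a lower one. Timm9 and Timm10, whose proteins assemble into one chaperone, had the largest differences of the role. Timm9 went from 637.2 to 1199, 1.88-fold higher, and Timm10 from 1316 to 2164, 1.64-fold higher. Their log2 differences were 0.91 and 0.72. Each was read on 1 probe set.

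Timm8a1 and Timm13 encode the partners of a second chaperone of this kind. Timm8a1 had signals of 500.6 and 715.7, a log2 difference of 0.52, and 305.4 and 572.4 on its other probe set, or 0.91. Timm13 was at 2343 and 2932, or 0.32. Timm8b, a relative of Timm8a1, was at 2157 and 2577, or 0.26. All 3 lay on the same side as Timm9 and Timm10 on every measured probe set.

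Timm10b, which attaches the chaperone to the TIM22 complex, had nearly equal signals of 693.6 and 697.6. Its other probe set had 213.7 and 243.6, or 0.19. Timm22, the channel for carrier proteins, was at 217.8 and 181.3, a log2 difference of -0.26, and at -0.52 on its other probe set. Timm29, a further subunit of the TIM22 complex, was at 1196 and 1175, or -0.03, but at 0.64 on a dimmer probe set with signals of 35.2 and 54.8. Timm8a2 was not measured, at 29.8 and 23.8. Over the 8 measured genes of the role the median was 0.29, with 2 at least 1.5-fold higher and 0 lower.

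**Figure D2:**
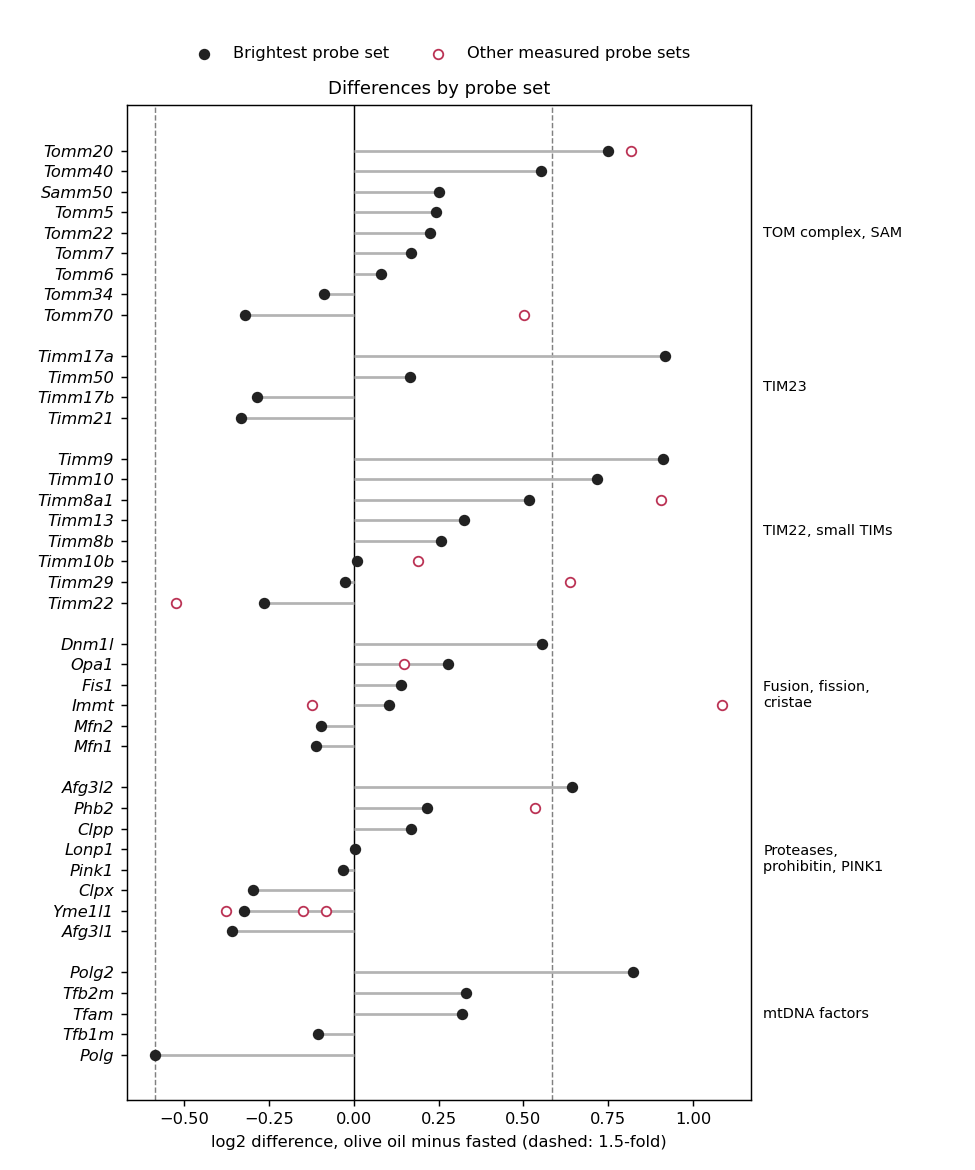
Log2 difference, olive oil minus fasted, of the 40 measured genes by role, with filled points for the brightest probe set, open points for the other measured probe sets, and dashed lines at 1.5-fold. Probe sets of Tomm20 (0.75 and 0.82) lie close together, while those of Tomm70 (-0.32 and 0.50) and Immt (from -0.12 to 1.09) lie on both sides of 0.

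Of the 10 genes with several measured probe sets, 7 had 1 sign on all of them and 3 did not, namely Tomm70, Timm29 and Immt. Among the 7 genes past 1.5-fold, Tomm20 was the only one with a second measured probe set.

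Genes of fusion, fission and cristae lay within 1.5-fold without exception. Dnm1l, the dynamin-related GTPase that divides mitochondria, came nearest to the limit, with signals of 147.4 and 216.7, a log2 difference of 0.56. A second, dim probe set of Dnm1l had 16.5 and 40.6. Fis1, an outer membrane protein of fission, was at 755.3 and 832.1, or 0.14. Opa1, which fuses the inner membranes, was at 252.4 and 306.2, or 0.28, with 0.15 on another probe set.

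The mitofusins Mfn1 and Mfn2, which fuse the outer membranes, were nearly alike in difference. Mfn1 was at 462.4 and 427.6, or -0.11, and Mfn2 at 522.9 and 488.7, or -0.10. Immt, the central MICOS subunit that shapes crista junctions, was at 1535 and 1650, or 0.10. Its other probe sets gave -0.12 at signals of 146.4 and 134.4, and 1.09 at 61.4 and 130.4. The median of the 6 genes was 0.12.

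Among proteases and their partners, Afg3l2 was the only gene past 1.5-fold. It encodes a subunit of the m-AAA protease of the inner membrane, and its signal was 185.3 fasted and 289.3 after olive oil, 1.56-fold higher, or 0.64. This fell short of 1.5-fold with the arrays centred on their medians. Its relative Afg3l1 went the other way, from 154.7 to 120.7, or -0.36. Yme1l1, the i-AAA protease that faces the intermembrane space, was at 1383 and 1105, or -0.32, and below 0 on all 4 of its measured probe sets.

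The matrix proteases lay within 1.5-fold. Lonp1, which degrades oxidised proteins, had signals of 662.4 and 663.5. Clpp, a proteolytic subunit, was at 526.5 and 592.0, or 0.17, and Clpx, the unfoldase that feeds it, at 2885 and 2349, or -0.30. Phb2, a prohibitin that forms a ring scaffold in the inner membrane, was at 1912 and 2219, or 0.21. A dimmer probe set of Phb2 had 62.9 and 91.1, or 0.53. The other prohibitin gene, Phb1, was left out because its probe sets also list another gene, and these gave 0.14 and 0.12. Pink1, the kinase that marks damaged mitochondria for removal, was at 1247 and 1220, or -0.03. Over the 8 genes of this role the median was -0.01, with 1 at least 1.5-fold higher and 0 lower.

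Among the factors for mitochondrial DNA, the highest and the lowest difference belonged to the subunits of 1 enzyme. Polg2, the accessory subunit of DNA polymerase gamma, which holds the enzyme on its template, went from 579.6 to 1026, 1.77-fold higher, or 0.82. Polg, the catalytic subunit, went from 918.2 to 611.7, 1.5-fold lower, or -0.59. The distance between them was 1.41 on the log2 scale. A dim second probe set of Polg had 56.8 fasted and 4.3 after olive oil. Polg was within 1.5-fold after loess normalization or with an offset of 16.

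Tfam, which packages mitochondrial DNA and starts its transcription, was at 765.3 and 954.1, a log2 difference of 0.32. Tfb2m, the transcription factor that works with it at the promoters, was at 455.1 and 571.8, or 0.33. Tfb1m, a methyltransferase of mitochondrial ribosomal RNA, was at 164.6 and 152.9, or -0.11. The median of the 5 genes was 0.32, with 1 at least 1.5-fold higher and 1 lower.

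**Figure D3:**
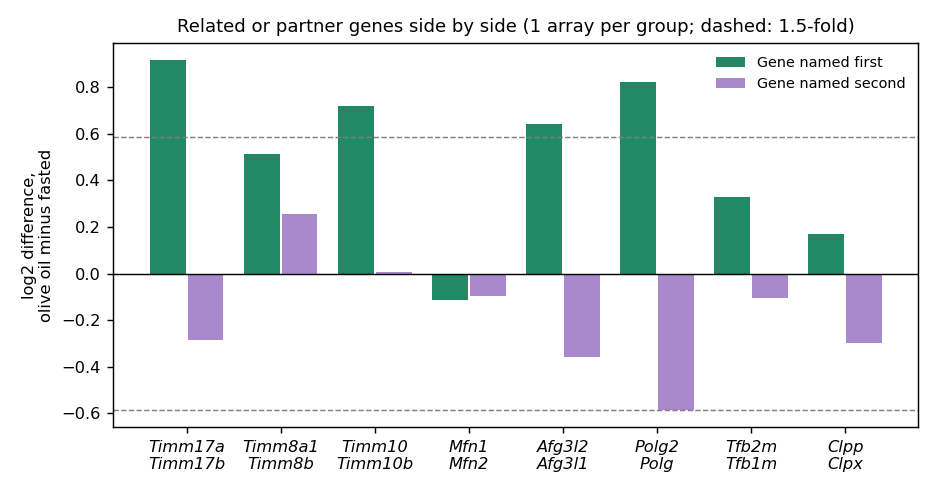
Log2 difference, olive oil minus fasted, of 8 pairs of related or partner genes, each bar 1 gene on 1 array per group, with dashed lines at 1.5-fold. Other pairs were compared but not drawn, and both genes of each were above 0. They were Timm9 and Timm10 (0.91 and 0.72), Tomm20 and Tomm22 (0.75 and 0.23), and Dnm1l and Fis1 (0.56 and 0.14). Bars point in opposite directions for Timm17a and Timm17b (0.92 and -0.28), Afg3l2 and Afg3l1 (0.64 and -0.36), Polg2 and Polg (0.82 and -0.59), Tfb2m and Tfb1m (0.33 and -0.11) and Clpp and Clpx (0.17 and -0.30), while Mfn1 and Mfn2 are nearly equal.

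The plot of paired genes shows how relatives or partners compared. Timm10 and Timm10b were 0.71 apart, Afg3l2 and Afg3l1 1.0, Clpp and Clpx 0.47, Tfb2m and Tfb1m 0.44, and Timm8a1 and Timm8b 0.26. Mfn1 and Mfn2 were 0.02 apart. Each distance rests on 1 probe set per gene, and the other probe set of Timm8a1 was at 0.91, beside 0.26 for Timm8b. No replicate array shows how far such distances vary.

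Of 97 other genes listed for the same pathways, 92 were found and 90 measured, and they too leaned upward. Of the 90, 7 were at least 1.5-fold higher (7.78%) and 2 lower (2.22%), with 57 above 0 and a median of 0.10. The 9.44% and 10.1% of all measured genes are the figures to set beside these shares. Of the 7, Ppargc1a, Nrf1 and Mtfr2 were under the signal limit on the fasted array. The list had been written with earlier results of these arrays known.

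**Figure D4:**
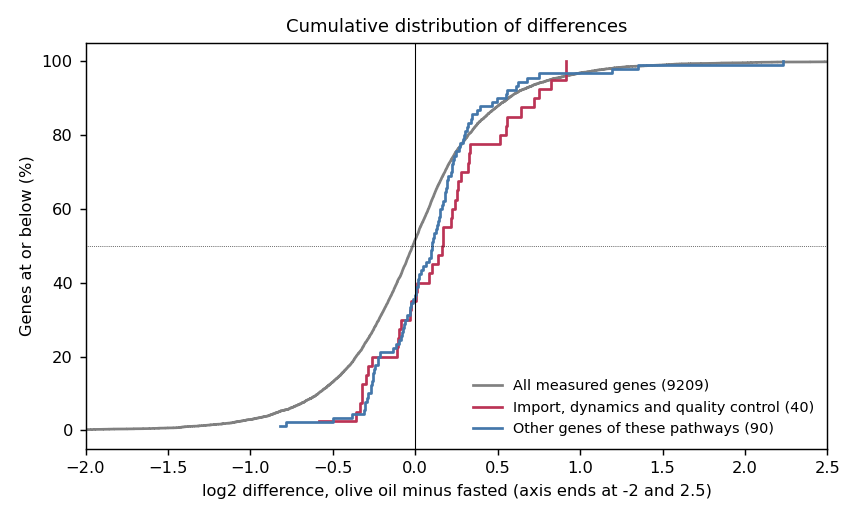
Cumulative share of genes (%) at or below each log2 difference, for all 9209 measured genes (grey), the 40 import, dynamics and quality control genes (red) and 90 other genes of these pathways (blue), with the axis ending at -2 and 2.5. The red line crosses 50% at 0.17, the blue at 0.10 and the grey at -0.01.

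Several regulators of mitochondrial biogenesis had a higher signal after olive oil, but not all of them. Gabpa and Gabpb1, the genes of the ETS factor GABP, were lower, at -0.31 and -0.26, both within 1.5-fold. They were named after their values were seen. Among 22 measured genes of mitochondrial DNA maintenance and biogenesis, 5 were at least 1.5-fold higher (22.7%) and 1 lower (4.55%), with a median of 0.17. The shares over all measured genes were 9.44% and 10.1%. Ppargc1a and Nrf1 count among the 5 although both were under the signal limit on the fasted array. Ppargc1a, the coactivator that switches on mitochondrial biogenesis, was at 35.0 and 164.2, a log2 difference of 2.23. Esrra, the estrogen-related receptor alpha that works with it, went from 94.2 to 240.2, 2.55-fold higher, or 1.35. Pprc1, a relative of the coactivator, went from 70.0 to 160.2, 2.29-fold higher, or 1.19.

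The last members of the 5 were dimmer or smaller in difference. Ppargc1b, the other relative of the coactivator, named after its values were seen, went from 116.1 to 185.6, 1.60-fold higher. Nrf1, the transcription factor whose motif was searched above, had 34.8 and 53.7, 1.54-fold higher, or 0.63. It fell short of 1.5-fold under 5 alternatives, at 0.55 after centring, 0.56 after quantile normalization, 0.57 after loess, 0.46 with an offset of 16 and 0.30 with a floor at the 50th percentile. Ppargc1a and Nrf1 were under the limit of 41.4 on the fasted array and counted as measured only through the olive oil array. Another probe set of Ppargc1a had 26.6 and 128.2, or 2.27, and a dim one had 14.8 and 18.7. Dguok, which makes deoxynucleotides for mitochondrial DNA, was the gene that was lower, at 385.4 and 218.7, or -0.82, and -1.80 on its other probe set.

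Of the other enzymes and proteins that act on mitochondrial DNA, 3 had been fixed to be named, and all lay within 1.5-fold. Polrmt, the mitochondrial RNA polymerase, was at 202.1 and 235.9, or 0.22. Twnk, the replicative helicase, was at 265.4 and 303.5, or 0.19, with -0.11 on another probe set. Ssbp1, the single-strand binding protein, was at 755.3 and 686.6, or -0.14, with 0.22 on another probe set. Its direction and that of Twnk therefore depended on the probe set.

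**Figure D5:**
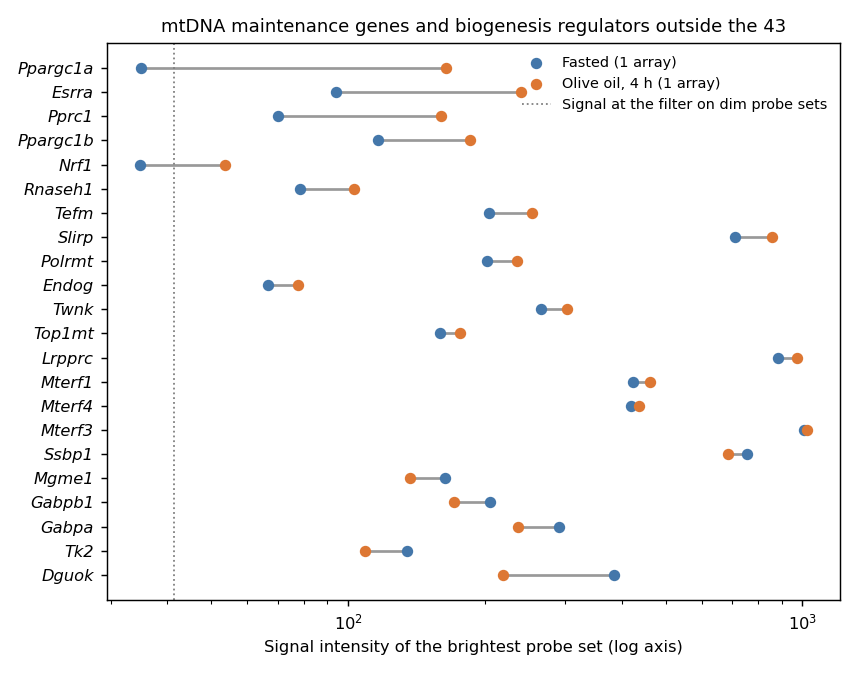
Signal intensity (log axis) of 22 measured genes of mitochondrial DNA maintenance and biogenesis on the fasted (blue) and olive oil (orange) arrays, ordered by difference, with a dotted line at the signal limit for measured genes, 41.4. The top 5, Ppargc1a, Esrra, Pprc1, Ppargc1b and Nrf1, are regulators, and Ppargc1a (35.0) and Nrf1 (34.8) lie under the limit on the fasted array.

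The import motor, processing and assembly genes were within 1.5-fold in all 25 cases, with a median of 0.02. Hspa9, the matrix Hsp70 that pulls proteins in, was at 2106 and 2392, or 0.18, and Hspd1, the chaperonin that folds them, at 5953 and 6701, or 0.17. Pam16, a regulator of the motor, had the largest difference at 0.35. Mipep, which trims cleaved precursors, was at -0.30. Pmpca and Pmpcb, the subunits of the presequence peptidase, were at -0.29 and 0.10, and the inner membrane peptidase genes Immp1l and Immp2l at -0.26 and 0.13. Pmpcb and Immp2l were named after their values were seen.

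Other dynamics and cristae genes had a median of 0.09 over 23 measured genes, with 1 at least 1.5-fold higher and 1 lower. Mief1, which recruits Dnm1l to mitochondria, went from 71.9 to 41.8, or -0.78, and Mtfr2, a fission regulator, from 34.1 to 57.3, or 0.75. Both are dim: Mtfr2 was under the limit on the fasted array, counted as measured only through the olive oil array, and fell short of 1.5-fold with an offset of 16 (0.55). Chchd6 and Dnajc11, of the MICOS complex and its partners, differed by 0.50 and 0.47, and Oma1, the stress-activated protease that cleaves Opa1, by 0.10.

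Genes of proteases and mitophagy had a median of 0.15 over 20 measured genes, with 1 at least 1.5-fold higher and 0 lower. That gene was Maip1, a partner of the m-AAA protease, at 115.4 and 176.3, or 0.61, which fell short of 1.5-fold after centring (0.54) or with an offset of 16 (0.55). Spg7, which forms the m-AAA protease with Afg3l2, was at 107.5 and 139.5, or 0.38, and 0.60 on its other probe set. Of the genes of this protease, Afg3l2, Spg7 and Maip1 were thus above 0 and Afg3l1 below, at -0.36.

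The mitophagy receptors Bnip3 and Bnip3l had almost the same difference. Bnip3 was at 1339 and 1967, or 0.55, and Bnip3l at 1584 and 2325, or 0.55, with 0.48 on another probe set. Optn, an adaptor that links marked mitochondria to autophagosomes, was at 1366 and 966.7, or -0.50, and -0.25 on another probe set. Htra2, an intermembrane space protease, was at 281.2 and 236.3, or -0.25. The parkin gene was not analysed here.

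Other families of nuclear genes for mitochondria can be set beside the median of 0.17 of the 40 genes. Mitochondrial ribosomal proteins had a median of 0.03, with 3 of 73 measured genes at least 1.5-fold higher (4.11%) and 0 lower. Oxidative phosphorylation subunits had 0.08, with 1 of 73 higher (1.37%) and 0 lower. The mitochondrial SLC25 carriers had 0.14, with 4 of 34 higher (11.8%) and 1 lower (2.94%). Over all measured genes, 9.44% were higher and 10.1% lower. The share of genes above 0 was 58.9% for the ribosomal proteins, 78.1% for the oxidative phosphorylation subunits and 67.6% for the carriers. That of the 40 genes was 65.0% and that of all measured genes 48.3%, so an upward lean was not particular to the 40. With 1 array per group the differences between these medians and shares could not be tested.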

How the data were processed

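Data of 1 array per group were used as deposited: signal intensities on a linear scale, made by the authors with Affymetrix Expression Console, per the submitters' processing notes; which algorithm and version was not stated. The 57 control probe sets were set aside. For the other 31042, signals under the 25th percentile (12.8) were raised to it and log2 taken. Symbols came from the platform annotation, updated by gene ID through a RefSeq table of GRCr8 (20758 of 20826 probe sets with 1 gene), and 43 genes were also found by the original symbols. Probe sets listing several genes were left out, 3 of them with a symbol of the rule. No test was possible, so 1.5-fold stood in for a threshold. Having 1 array per group limits the precision. The members and lists were chosen with earlier results of these data known. Genes outside the 43 were named as the 4 of largest difference per list plus 10 fixed genes. The functions were tested on simulated data. Alternatives were other scalings, floors, filters, probe set rules and thresholds. Python 3.11.15, numpy 2.4.6, pandas 2.3.3 and statsmodels 0.14.6 were used.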

Additional observations from a re-analysis of the deposited data

How the results depend on the processing

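Results were recomputed with 3 other scalings (centring on medians, quantile, loess), a missing, a higher (50th percentile) or an additive floor (offset of 16), no filter or a stricter one (75th percentile), a gene's probe sets averaged, shared-transcript suffixes left out, and platform symbols. Under these 11 settings 5 to 7 genes were at least 1.5-fold higher, Timm17a, Timm9, Timm10, Tomm20 and Polg2 among them each time, and 24 to 28 were above 0. Polg no longer reached 1.5-fold with loess (0 lower) or the offset of 16 (0 lower). The median of 0.17 became 0.093 with the arrays centred on their medians, when that of all measured genes became -0.09. A threshold of 0.32 on the log2 scale gave 11 higher and 4 lower, beside 20.0% and 22.2% of all measured genes, and 2-fold gave 0 and 0, beside 3.21% and 2.92% of all measured genes. No gene past 1.5-fold changed sign. Centring turned the sign of 2 genes near 0, quantile normalization that of 1, and the mean over probe sets that of 2, Tomm70 (0.09) and Timm29 (0.31). Among other single genes, the mean over probe sets moved Dguok to -1.31, the offset moved Ppargc1a to 1.82, and leaving out shared suffixes moved Ssbp1 to 0.22. No paired analysis was possible because each group was 1 array. Dim probe sets carry no detection call, which limits Tomm40l, Timm8a2, Timm44 and the dimmer regulators.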

Other observations

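COX1, which is encoded by mitochondrial DNA itself and was named after its values were seen, had 1 probe set with signals of 20066 fasted and 18573 after olive oil, a log2 difference of -0.11, near the top of the range of both arrays. Other mitochondrial transcripts were not analysed here.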
